A study of Homo sapiens with 36 samples.

Results

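The messages of engineered human foreskin fibroblast lines were compared for how many ribosome footprints they carried relative to their RNA. The comparison used 9 of the 36 libraries of the study, which profiled ribosomes and RNA in a fibroblast and a breast epithelial model of transformation. BJ is a foreskin fibroblast line, and its derivatives EH, EL and ELR each gave 2 footprint libraries and 1 RNA library. The libraries were picked by their labels, as all BJ libraries of RNA and of ribosomes halted with cycloheximide. This inhibitor freezes elongating ribosomes on the message. The choice was made with earlier results of these data known. Cells of the footprint libraries received 100 µg/ml cycloheximide for 90 s, and cells of the RNA libraries received none. RNA libraries were made from total RNA depleted of ribosomal RNA and fragmented by heat, whereas footprints are the short pieces that ribosomes protect from nuclease. The labels do not spell out EH, EL and ELR. By their culture reference they belong to a published BJ series in which the catalytic subunit of telomerase, viral early region proteins and activated HRAS were added in steps, and each line is an engineered derivative and not a normal fibroblast. Nothing in the labels says that the footprint pairs came from separate cultures, and the RNA of each line was measured once. The p-values below therefore measure the spread between these libraries, which may be technical. Those of the line term, which asks whether the ratio differs between lines, take their error from the footprint pairs alone. They hold no spread between RNA libraries, which are assumed to vary like the footprints.

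A second model was used only to ask where BJ differed. It was MCF-10A-ER-Src, a breast epithelial line with a Src protein that tamoxifen switches on, taken here only without tamoxifen. There were 4 RNA and 4 cycloheximide footprint libraries at 0 h or after 1, 4 or 24 h in ethanol, 1 of each kind per time. The times were fitted as 1 uninduced group and so served as its replicates. Any difference between times therefore entered the error of the comparison with BJ.

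BJ footprint libraries held 1178400 to 2606898 counts and RNA libraries 2074499 to 2553776, over 19137 gene symbols. The 2 footprint libraries of a line differed by slightly more than counting noise, with a chi-square per degree of freedom of 1.09 in EH, 1.18 in EL and 1.11 in ELR, and were counted as 2. The 14 fibroblast markers summed to 5824 to 26820 CPM, the normalised read count per 1000000 counts, in the RNA and 11530 to 46200 in the footprints, with none at 0. Of 13 leukocyte markers 6, among them CD3E and NKG7, were at 0 in all 9 libraries, and the footprints of all 13 summed to at most 4.60 CPM. The 18 epithelial markers, none at 0 in all 9 libraries, summed to 235 to 836 CPM in the RNA and 1032 to 1652 in the footprints, with KRT18 footprints at 808 to 1051 CPM in every line. Of 10 endothelial markers PECAM1, CDH5 and ERG were at 0 in all 9 libraries, and the 10 summed to 15.9 to 54.8 CPM in the footprints, with TIE1 at 36.0 and 38.0 CPM in ELR. The part of these markers in the results below was not tested. TERT, the catalytic subunit of telomerase, which BJ fibroblasts do not normally make, had 108, 105 and 118 CPM in the RNA of EH, EL and ELR and 344 and 370, 173 and 182, and 209 and 250 CPM in their footprints, against at most 0.771 CPM in any ER-Src library. HRAS was highest in ELR, with 31.6 CPM of RNA and 144 and 159 CPM of footprints, against 14.3 and 17.4 CPM of RNA and 26.7 to 34.8 CPM of footprints in EH and EL.

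A ribosome reads a message from its start codon to its stop, and each footprint marks 1 ribosome on it. The number of footprints for a given amount of RNA, often called translational efficiency, reflects how often ribosomes start on a message and how long they stay. Known features that lower starting are short reading frames ahead of the coding region, stem-loops in the leader such as the iron-responsive element, and a pyrimidine tract at the very start of messages for ribosomal proteins and elongation factors, the 5′ terminal oligopyrimidine (TOP) tract, which makes their translation depend on growth signals. The ratio used below is the log2 of footprint CPM over RNA CPM, fitted over the 9 libraries with line as a covariate in edgeR's quasi-likelihood test. It is relative to the other messages of the same libraries, not an absolute count of ribosomes.

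Most messages departed from the average. Of 11083 genes tested, 4291 (38.7%) were higher in footprints than in RNA and 4379 (39.5%) lower at an adjusted p under 0.05, and 7872 of these 8670 lay on the same side in all 3 lines, with both footprint libraries above or both below the RNA library. The median log2 ratio was -0.02, with quartiles at -1.01 and 1.00. At least 2-fold and in all lines, 2568 genes (23.2%) were higher and 2616 (23.6%) lower. With so many genes called, a call says little by itself, and the members of each group below are read against these shares.

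The highest ratios were taken among called genes above the median abundance, on the same side in all lines and with over 3 counts in each assay. They belonged mostly to short, GC-rich coding regions, with the transcription factor NFIC as a longer exception. RNA counts summed over the 3 libraries were 14 for PPDPF, 36 for COX8A, 26 for NFIC and 4 for CRABP2, so the size of these ratios rests on few RNA counts. HIST1H4H had 166 and NDUFA4 130. PPDPF, a gene named for pancreatic progenitor cells, had 1.68, 2.54 and 1.44 CPM of RNA in EH, EL and ELR and 188 and 158, 146 and 166, and 118 and 125 CPM of footprints. The log2 ratio was 6.27 (SE 0.18, adjusted p = 4.05e-16). COX8A, a subunit of cytochrome c oxidase, had 5.87, 5.08 and 3.59 CPM of RNA against 231 and 247, 292 and 325, and 348 and 345 CPM of footprints, a log2 ratio of 5.95 (SE 0.15). Its RNA was lowest in ELR and its footprints highest there. HIST1H4H, a histone H4 gene, had 16.3, 19.9 and 28.7 CPM of RNA and footprints of 553 and 550, 1147 and 1211, and 1473 and 1527 CPM, a log2 ratio of 5.60. Both kinds of library were lowest in EH and highest in ELR for this histone. NFIC had 2.51, 4.24 and 3.59 CPM of RNA and 130 to 173 CPM of footprints, a log2 ratio of 5.41 (SE 0.17, adjusted p = 8.80e-16) from a coding region of 1524 bases. NDUFA4, another small respiratory chain protein, had 12.3 to 20.8 CPM of RNA and 237 to 341 CPM of footprints, a log2 ratio of 4.14. CRABP2, which carries retinoic acid inside cells, had a log2 ratio of 7.33 that came mainly from EH, where footprints were 276 and 286 CPM and RNA 0.838 CPM. In ELR its footprints were only 3.17 and 1.68 CPM and its RNA was at 0. In ER-Src the ratio was 6.85 for PPDPF, 4.92 for COX8A, 4.92 for HIST1H4H and 5.46 for NFIC.

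**Figure D1:**
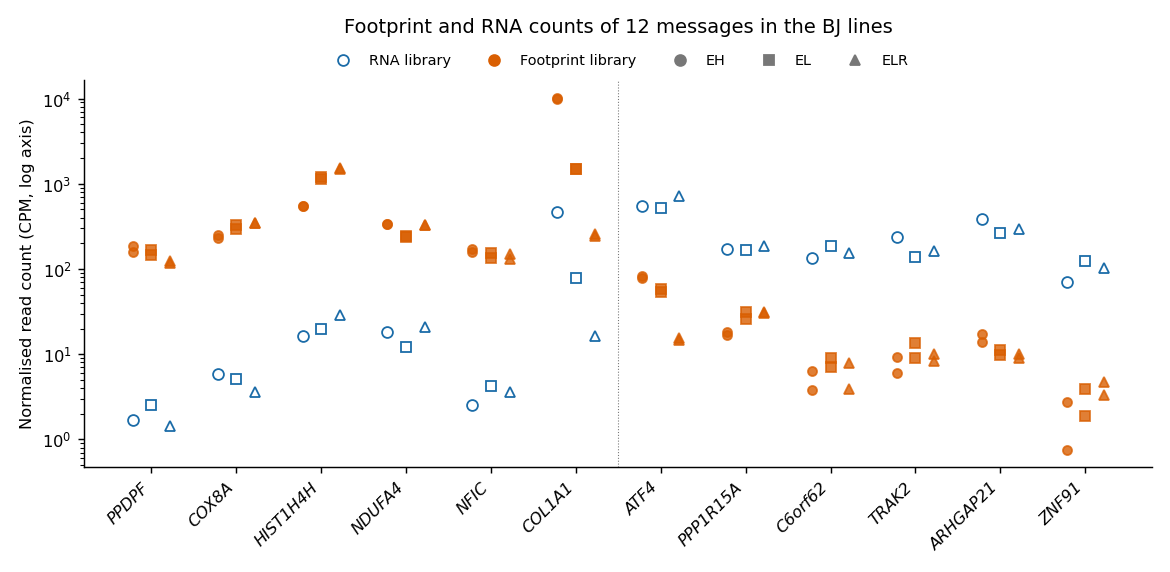
Normalised read counts (CPM, log axis) of 12 messages in the 3 RNA libraries (open, blue) and 6 footprint libraries (filled, orange), with a symbol for each line; messages left of the dotted line had more footprints than RNA and those right of it fewer. Most of the 12 were picked for extreme ratios among genes on the same side in all lines, so the gap between their libraries was set by that choice. PPDPF has RNA at 1.44 to 2.54 CPM and footprints at 118 to 188 CPM, and ATF4 has RNA at 514 to 714 CPM and footprints at 14.5 to 83.6 CPM.

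The lowest ratios belonged to abundant RNAs with few ribosomes. ARHGAP21, a GTPase-activating protein of the Golgi and cell junctions, had 391, 266 and 297 CPM of RNA in EH, EL and ELR and 17.4 and 13.8, 9.79 and 11.3, and 9.1 and 10.1 CPM of footprints, a log2 ratio of -4.75 (SE 0.10, adjusted p = 5.05e-17). C6orf62, a protein of 687 coding bases with little known of its role, had 134, 186 and 155 CPM of RNA and 3.79 to 9 CPM of footprints, a log2 ratio of -4.59 (SE 0.14, adjusted p = 4.30e-16). TRAK2, which links mitochondria to motor proteins, had 140 to 238 CPM of RNA and 6.06 to 13.6 CPM of footprints, a log2 ratio of -4.16. All 3 were picked among genes on the same side in all lines, so the gap between their libraries was set by that choice. ZNF91, a zinc finger repressor of retroelements, had a log2 ratio of -5.03 with 70, 125 and 103 CPM of RNA and 0.758 to 4.75 CPM of footprints. ADAMTS6, a secreted metalloprotease, had a log2 ratio of -4.65, and REV3L, the catalytic subunit of a DNA polymerase for damaged templates, -4.31. ANKRD36 was lower still at -7.54, but it has near-identical copies between which reads could be split, so its value is uncertain. TBCK, a kinase-like regulator of mTOR, had a ratio of -4.19 whose RNA differed by line: 74.2 CPM in EH, 694 in EL and 1050 in ELR, with footprints at 23.5 to 39.6 CPM throughout (adjusted p of the line term 3.27e-15). In ER-Src the log2 ratio was -4.20 for ARHGAP21, -4.74 for C6orf62 and -4.46 for ZNF91.

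Some messages had so few counts in one assay that only a bound or a ratio with a counting interval can be given, with 105 such genes on the high side and 68 on the low side having 3 or fewer counts in one assay. C4orf48, a small secreted neuropeptide-like protein, had 3 RNA counts over the 3 libraries and 487 footprint counts over the 6, a ratio of 107 (95% interval 36.5 to 522, counting error only). KISS1, a secreted peptide precursor, and SOD3, an extracellular superoxide dismutase, had ratios of 75.3 (25.5 to 367) and 172 (30.7 to 6834), with most of their footprints in EH. POTEF, at 98.6 (33.5 to 480), is nearly identical to actin over much of its coding region, and HIST2H3D, at 58.3 (19.7 to 285), to other histone H3 genes, so both are uncertain. On the low side WDR52 had no footprint count and was at least 73.2-fold lower in footprints than in RNA, with a floor of 3 counts over the group, and KIAA0408 at least 72.7-fold lower. NAIP, a sensor of bacterial proteins with near-identical copies, had 1 footprint count and a ratio of 194 (95% interval 34.2 to 7715) in favour of RNA. RSC1A1 had a ratio of 81.3 (27.3 to 398) in favour of RNA. Its coding region lies wholly within annotated exons of DDI2 on the same strand, so its RNA reads cannot be told from those of that gene.

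The ratio followed coding length and base composition across genes. The median log2 ratio was 1.18 in the 20% of genes with the shortest coding regions (72 to 774 bases), and then 0.42, -0.09, -0.54 and -1.15 in the 20% with the longest (2616 to 26775 bases). By GC content of the coding region it was -0.99 in the 20% of genes with the lowest content (32.28% to 43.38%) and then -0.51, -0.02, 0.50 and 1.03 in the 20% with the highest (60.2% to 79.74%). Together the 2 properties accounted for 48.9% of the variance of the ratio across genes (length alone 29.0%, GC alone 24.5%). ER-Src medians ran from 1.11 to -1.08 over length and from -0.80 to 0.81 over GC. RNA fragments and footprints differ in size and preparation, and the sources used here do not state which part of a transcript was counted; the part of these in the trends was not tested. The lists and most of the genes below are therefore also given after a smooth trend on length and GC was taken out, called the trend-adjusted ratio. After it 3779 of 11032 genes (34.3%) were higher and 3592 (32.6%) lower. PPDPF stood at 3.04, COX8A at 2.36, HIST1H4H at 3.46 and NFIC at 4.50, while C6orf62 kept -4.73, ARHGAP21 moved to -2.84 and REV3L to -1.60.

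**Figure D2:**
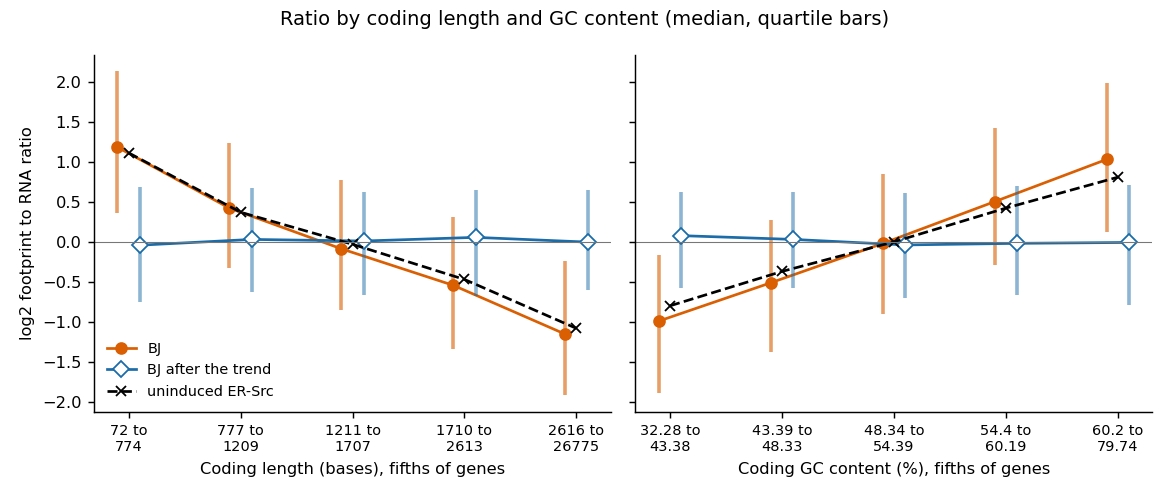
Median log2 footprint to RNA ratio (y axis, with bars from the lower to the upper quartile of genes) in 5 equal groups of genes by coding length in bases (left) and coding GC content in percent (right), for BJ, BJ after the trend on both was taken out, and uninduced ER-Src (medians only). The BJ median falls from 1.18 to -1.15 with length and climbs from -0.99 to 1.03 with GC, ER-Src follows the same course, and after the trend the medians lie near 0.

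Respiratory chain and histone messages were the groups with most members on the high side. Of 75 subunits of oxidative phosphorylation 74 were higher and 1, NDUFS1 at -1.13, lower, with a median of 1.93 against -0.02 over all genes and 38.7% called higher. The trend-adjusted median was 0.50, with 45 higher and 14 lower, and the ER-Src median was 1.80. Of 57 replication-dependent histones tested, whose messages end in a stem-loop in place of a poly(A) tail, 56 were higher. HIST1H2AD was lower at -1.67. The median was 2.86 and the trend-adjusted median 0.85, and after the trend 32 of 54 were higher and 17 lower. Counts of histone genes are uncertain because many are near-identical. The 9 variant histones, which have polyadenylated messages, had a median of 1.51 and a trend-adjusted median of 0.04, with 8 higher and 1 lower. Mitochondrial ribosomal proteins had 64 of 75 higher and 3 lower, with a median of 1.10 and 0.12 after the trend. After it 31 of them were higher and 23 lower, against 34.3% and 32.6% of all genes.

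Glycolytic, secretory and contractile lists had high medians that the length and GC trend moved little, although several single members moved more. Of 20 glycolysis genes 18 were higher and none lower (median 1.22, trend-adjusted 1.05 with 19 higher). GAPDH had 2320, 2368 and 3323 CPM of RNA in EH, EL and ELR against 7218 and 7330, 9947 and 10166, and 11204 and 11464 CPM of footprints, a log2 ratio of 1.83 (trend-adjusted 1.09). SLC2A1, the main glucose transporter of proliferating cells, stood at 3.13 and ALDOA, an aldolase, at 2.80 (trend-adjusted 2.61 and 2.06). Of 36 genes of endoplasmic reticulum folding and translocation 25 were higher and 9 lower (median 0.82, trend-adjusted 0.71). P4HB, a disulfide isomerase that is also a subunit of collagen prolyl hydroxylase, had 98.1, 70.7 and 56.4 CPM of RNA and footprints of 1814 and 1789, 1428 and 1448, and 1196 and 1185 CPM, a log2 ratio of 4.31 (trend-adjusted 4.01). SERPINH1, the collagen chaperone, stood at 3.05 (trend-adjusted 2.09). Collagen-modifying enzymes had 11 of 14 higher and 1 lower (median 0.75, trend-adjusted 0.69). Of 31 actin and contractile genes 22 were higher and 7 lower (median 0.89, trend-adjusted 0.72). ACTG1 stood at 4.45 and ACTB at 2.80 (trend-adjusted 3.44 and 1.82), with 1460 to 2374 CPM of ACTB RNA and 11530 to 14087 CPM of footprints; the actin genes share long stretches of sequence with each other and with pseudogenes. Of 34 proteasome subunits 25 were higher and 5 lower (median 0.69, trend-adjusted 0.71).

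The 2 chains of type I collagen stood far apart, while extracellular matrix messages as a list were called on both sides at close to the shares of all genes. COL1A1 had 470, 79.2 and 16.2 CPM of RNA in EH, EL and ELR and footprints of 9902 and 10243, 1479 and 1498, and 243 and 258 CPM, a log2 ratio of 4.27 (SE 0.11, adjusted p = 1.11e-16; trend-adjusted 4.23). COL1A2 had 6575, 863 and 36.3 CPM of RNA and footprints of 12057 and 12279, 1259 and 1234, and 20.2 and 24.6 CPM, a log2 ratio of 0.46 (adjusted p = 0.013). For COL1A1 the footprint libraries lay far above the RNA library in every line, and for COL1A2 above it in EH and EL and below it in ELR. COL3A1 was lower at -1.47, with 1512, 590 and 2.87 CPM of RNA against 602 to 609, 186 to 189 and 1.58 to 1.68 CPM of footprints. Of the 40 matrix genes 17 were higher and 19 lower, against 38.7% and 39.5% of all genes. SPARC, a collagen-binding glycoprotein, was among the higher at 2.21. Fibronectin, FN1, was among the lower at -1.11, and its trend-adjusted ratio was 0.45. Over the list the median was -0.07 and the trend-adjusted median 0.69, with 29 higher and 6 lower.

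Immediate-early genes, the transcription factors and feedback proteins induced first by growth factors, had 19 of 24 higher and 1 lower (median 1.72), and inflammatory mediators 11 of 17 higher and 2 lower (median 1.28). After the trend these medians were 0.31 and -0.21. Interferon-induced genes had 9 of 32 higher and 18 lower (median -0.54, trend-adjusted -0.40). Selenoproteins had 12 of 18 higher and 4 lower (median 1.05, trend-adjusted 0.00).

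Further lists are given against 38.7% of all genes higher and 39.5% lower. Initiation factors without a listed TOP tract had 19 of 30 higher and 7 lower (median 0.51, trend-adjusted 0.64), with EIF1, which proofreads start codons, among the high. Cholesterol synthesis genes had 13 of 22 higher and 4 lower (median 0.58, trend-adjusted 0.34) and tubulins 8 of 12 higher and 1 lower (median 0.84, trend-adjusted 0.25). Splicing regulators had 21 of 39 higher and 10 lower (median 0.24, trend-adjusted 0.30), and DNA replication genes 18 of 38 higher and 9 lower (median 0.09, trend-adjusted 0.53). Cytosolic tRNA synthetases had 10 of 21 higher and 7 lower (median 0.18), and cytosolic chaperones 13 of 25 higher and 6 lower (median 0.24). After the trend 21 of 25 chaperones and 16 of 21 synthetases were higher, with medians of 0.88 and 0.77. Polyamine genes, several of which are known for control of their translation, had 5 higher and 5 lower. SRM, spermidine synthase, had 14.3, 18.6 and 21.2 CPM of RNA in EH, EL and ELR against 186 to 238 CPM of footprints, a log2 ratio of 3.53 (trend-adjusted 2.21). ODC1, ornithine decarboxylase, had 535, 282 and 648 CPM of RNA against 134 to 233 CPM of footprints, a log2 ratio of -1.32 (trend-adjusted -0.89). OAZ1, the antizyme made by a ribosomal frameshift, stood at 1.02, but at -0.39 after the trend.

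Among the lists with most members on the low side were nuclear regulators. Of 34 chromatin remodellers and histone methyltransferases 28 were lower and 5 higher (median -1.65), including CHD9 at -3.33, ASH1L at -3.03 and SETD2 at -3.01 (trend-adjusted -0.80, -0.73 and -0.74). After the trend the list had 11 higher and 13 lower and a median of -0.11. The numbered zinc finger genes, many of them repressors of transposable elements, had 314 of 388 tested lower and 30 higher (median -1.74), against 39.5% of all genes lower. After the trend 258 of 387 were still lower and 19 higher (median -0.99). Mitosis genes had 17 of 30 lower and 9 higher (median -0.38), with the large spindle proteins ASPM at -2.74 and CENPE at -2.42, but after the trend 25 were higher and 2 lower (median 0.80). Growth factor receptors had 14 of 21 lower and 1 higher (median -0.40) and integrins 7 of 13 lower and 3 higher (median -0.47), and both medians were above 0 after the trend, at 0.31 and 0.58.

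**Figure D3:**
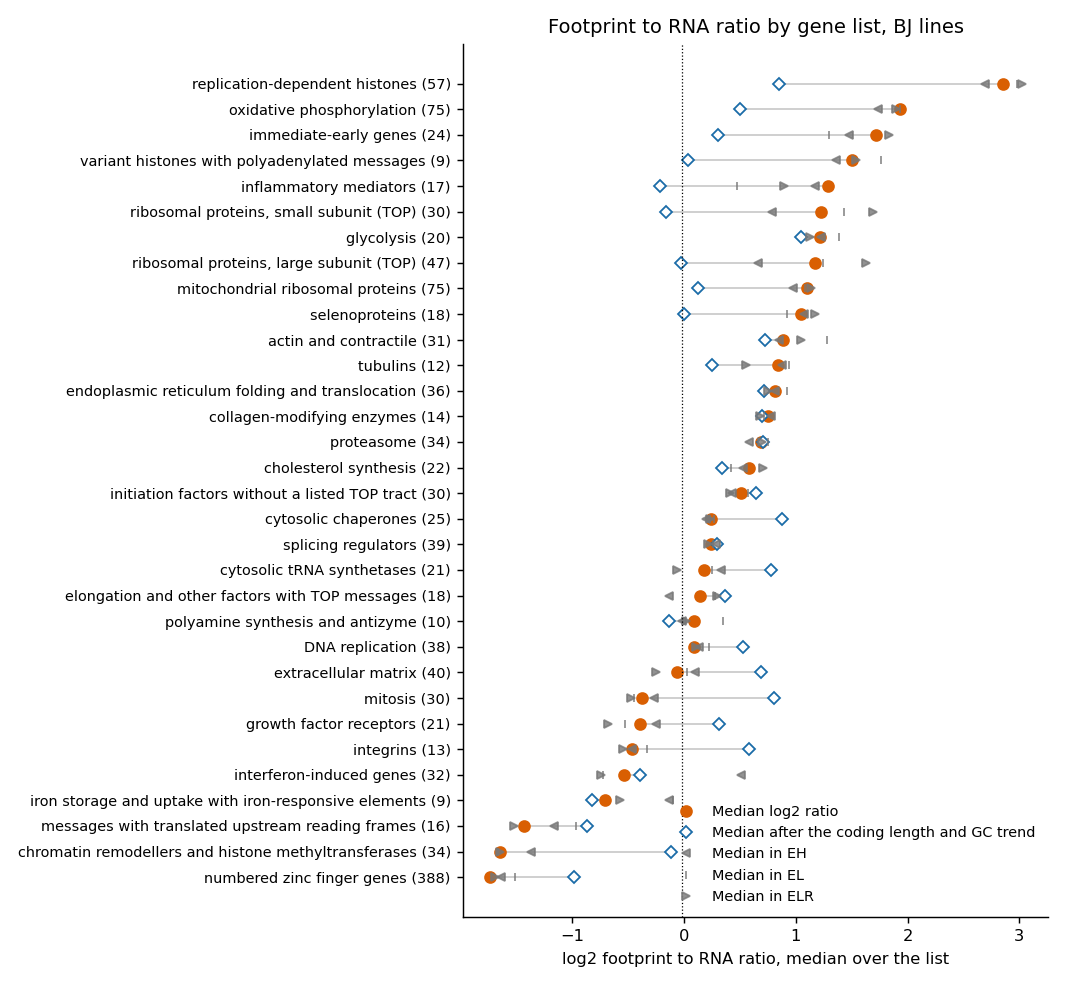
Median log2 footprint to RNA ratio of each gene list in BJ (x axis; number of genes tested in brackets), over the lines (filled), after the trend on coding length and GC content was taken out (open) and in each line (grey marks); the dotted line is the median of all genes. Oxidative phosphorylation and replication-dependent histones lie to the right (medians 1.93 and 2.86), chromatin remodellers and numbered zinc finger genes to the left (medians -1.65 and -1.74), and the trend-adjusted median of the chromatin list is close to 0 while that of the zinc finger genes is -0.99.

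Messages known for translated upstream reading frames stood low. Of 16 tested 14 were lower and 2 higher, with a median of -1.43 and a trend-adjusted median of -0.87. The upstream ATGs of 6 low messages are shown because they are the feature that the list was built on or, for C6orf62, one that its leader shares with it; each line gives 12 bases before the ATG, the ATG in capitals and 12 bases after it, 5′ to 3′ along the message, from GRCh37 and the GENCODE release 44 transcript.
ATF4, upstream ATG 2 of 3: tccacggccaccATGgcgtattagggg
ATF4, upstream ATG 3 of 3: gcggcttaagccATGgcgcttctcacg
SLC35A4, upstream ATG 1 of 11: tcggcggggaagATGgcggatgacaag
PPP1R15A, upstream ATG 2 of 2: cctgagggtgagATGaacgcgctggcc
DDIT3, upstream ATG 1 of 3: actgagcgtatcATGttaaagatgagc
IFRD1, upstream ATG 1 of 1: ctagagagaaacATGtatcgttttcga
C6orf62, upstream ATG 1 of 5: gggaaaatccggATGgattttagggat
The ATF4 pair lies in the leader on the plus strand, the former at chr22:39916641-39916667 in exon 1 and the latter at chr22:39916740-39917368, where an intron splits it. The former opens a frame of 3 codons that ends in the leader, and the latter a frame of 59 codons that runs 83 bases into the coding region. The SLC35A4 ATG (chr5:139944417-139944443, plus strand, exon 1) opens 103 codons, longer than the others shown. The PPP1R15A ATG (chr19:49375799-49375825, plus strand, exon 1) opens 26 codons that end 26 bases before the start codon. The DDIT3 ATG (chr12:57914249-57914275, minus strand, exon 1) opens 34 codons, the IFRD1 ATG (chr7:112090530-112090556, plus strand, exon 1) 52 and the C6orf62 ATG (chr6:24719300-24719326, minus strand, exon 1) 16, all ending in the leader.

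ATF4, the transcription factor of the integrated stress response, whose last upstream frame overlaps its start, had 542, 514 and 714 CPM of RNA in EH, EL and ELR and 78.8 and 83.6, 54.4 and 57.8, and 15.4 and 14.5 CPM of footprints. Its log2 ratio was -3.70 (SE 0.26, adjusted p = 9.90e-11; ER-Src -4.08). The footprints were lowest in ELR, where the RNA was highest, and the ratio differed by line (-2.73, -3.19 and -5.53, adjusted p of the line term 4.49e-22). SLC35A4, a Golgi transporter relative with 11 upstream ATGs, had 15.1, 16.5 and 30.2 CPM of RNA and 0 to 1.57 CPM of footprints, a log2 ratio of -4.81 (SE 0.39, adjusted p = 8.71e-10). PPP1R15A, which directs the phosphatase that ends the stress response, had 166 to 186 CPM of RNA and 16.7 to 31.3 CPM of footprints, a log2 ratio of -2.72 (SE 0.11, adjusted p = 4.08e-14; ER-Src -3.23). DDIT3, the stress factor CHOP, had 7.54 to 10.2 CPM of RNA and 1.12 to 3.68 CPM of footprints, a log2 ratio of -2.20 (adjusted p = 1.18e-05). In each of these 4 the RNA library of a line lay above both of its footprint libraries. IBTK stood at -3.15, IFRD1 at -1.88 and ATF5 at -1.84 (trend-adjusted -1.09, -1.29 and -3.57). The exceptions were CEBPB, a transcription factor listed for an upstream frame, at 3.76 (trend-adjusted 1.15), and UCP2, a mitochondrial carrier, at 1.53 (trend-adjusted 0.53, which did not pass the test). The annotated leader of CEBPB used here holds no upstream ATG.

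The same order held over all leaders. Of 10473 tested genes with an annotated leader of at least 20 bases, 58.5% had no upstream ATG and a median log2 ratio of 0.35. With 1, 2, 3 or 4, and 5 or more upstream ATGs the median was -0.34 (2075 genes), -0.69 (967), -1.03 (790) and -1.42 (514). After the length and GC trend the same 5 medians were 0.19, -0.11, -0.35, -0.50 and -0.67, and in ER-Src they were 0.27, -0.23, -0.61, -0.73 and -1.11. Genes with an upstream frame running out of frame into the coding region (1306, or 12.5%) had a median of -0.76. Those with a frame ending in the leader and no such overlap (2982, or 28.5%) had a median of -0.65. Upstream frames that continue in frame into the coding region were not counted as overlap. Genes differ in many ways beside their upstream ATGs, so these medians are descriptions with no test. In groups of 20% of genes from the shortest to the longest leaders, the median was 0.53, 0.39, -0.01, -0.37 and -0.81. After the trend, which does not take out leader length, these medians were 0.18, 0.23, 0.07, -0.10 and -0.41. From the shortest to the longest 3′ untranslated regions the median went from 0.58 to -0.54. The part of these lengths in the fall with upstream ATGs was not tested. The sequence around the start codon went with smaller differences: messages with a purine 3 bases before it and a G after it had a median of 0.09 and those with neither -0.24.

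**Figure D4:**
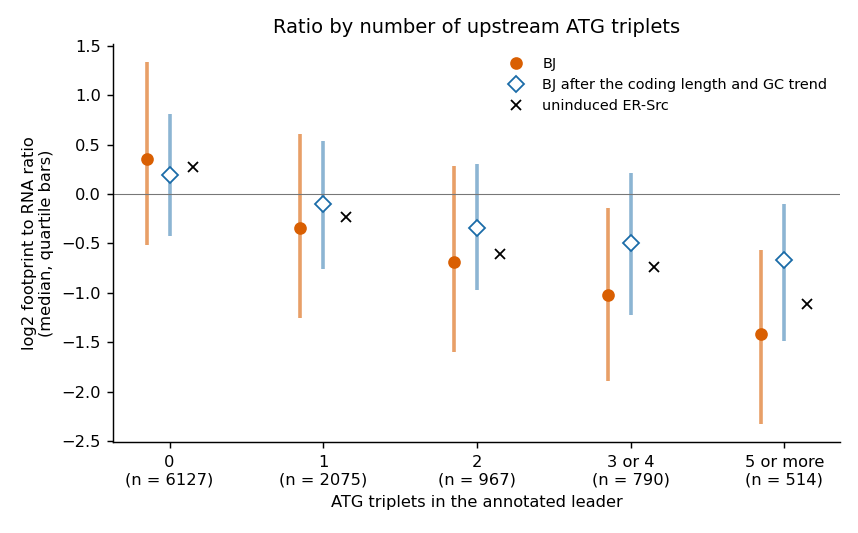
Median log2 footprint to RNA ratio (y axis, bars from lower to upper quartile) of genes grouped by the number of ATGs in the annotated leader (x axis), for BJ, BJ after the length and GC trend was taken out, and uninduced ER-Src. The BJ median falls at each step, from 0.35 without an upstream ATG to -1.42 with 5 or more, and from 0.19 to -0.67 after the trend.

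Both ferritin messages carry the iron-responsive element, a stem-loop that iron regulatory proteins bind to block starting; its loop is shown with the motif CAGTGN in capitals (GRCh37, GENCODE leaders).
FTH1: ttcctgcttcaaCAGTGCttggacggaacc
FTL: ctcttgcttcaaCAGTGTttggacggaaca
The FTH1 loop lies at chr11:61735045-61735074 on the minus strand and the FTL loop at chr19:49468592-49468621 on the plus strand. Letters alone are common: CAGTGN occurred in 18.5% of 10497 leaders. FTH1, the heavy chain of ferritin, had 356, 219 and 101 CPM of RNA in EH, EL and ELR and 221 and 220, 89.6 and 79.8, and 66.1 and 69.4 CPM of footprints, a log2 ratio of -0.89 (SE 0.11, adjusted p = 4.10e-07; trend-adjusted -1.73). FTL, the light chain, had 211, 153 and 123 CPM of RNA and 209 and 176, 140 and 147, and 223 and 233 CPM of footprints, and its log2 ratio of 0.21 did not pass the test (adjusted p = 0.154), while its trend-adjusted ratio was -1.38 (adjusted p = 2.83e-08). So the direction for FTL depended on the trend. Of the FTH1 coding bases 79.2% lie within annotated exons of BEST1 on the other strand, and it is not given whether counting used strand. TFRC, the transferrin receptor, whose elements lie after the coding region, stood at 0.75 (trend-adjusted 1.89).

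Messages with a TOP tract lay on both sides. The first 20 bases from the RefSeq start (GRCh38.p14) are shown after the 10 bases before it, with the pyrimidine run at the start in capitals, for 4 messages on the low side and 5 others on the high side or near 0.
EEF1A1: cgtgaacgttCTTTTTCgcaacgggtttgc
TPT1: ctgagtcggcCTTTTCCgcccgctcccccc
EIF4B: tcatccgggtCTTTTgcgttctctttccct
NPM1: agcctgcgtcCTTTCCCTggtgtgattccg
EIF3F: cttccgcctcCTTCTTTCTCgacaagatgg
RPL18: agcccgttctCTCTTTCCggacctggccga
RPS16: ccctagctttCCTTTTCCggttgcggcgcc
RPS6: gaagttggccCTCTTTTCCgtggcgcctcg
RPL6: gtatcctcagTgaatcagaaccagaaaaag
The first 8 begin with C and a run of pyrimidines, and RPL6 at its RefSeq start does not. On the plus strand EIF4B lies at chr12:53006446-53006475, NPM1 at chr5:171387839-171387868 and EIF3F at chr11:7987327-7987356. On the minus strand EEF1A1 lies at chr6:73521013-73521042, TPT1 at chr13:45341164-45341193, RPL18 at chr19:48619159-48619188, RPS16 at chr19:39435930-39435959, RPL6 at chr12:112411423-112411452 and RPS6 at chr9:19380217-19380246.

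EEF1A1, which brings aminoacyl-tRNA to the ribosome, had 5863, 4257 and 5456 CPM of RNA in EH, EL and ELR and 1597 and 1667, 1462 and 1439, and 2140 and 2140 CPM of footprints, a log2 ratio of -1.59 (SE 0.08, adjusted p = 1.26e-12; trend-adjusted -1.25). EIF4B, a helper of the helicase that unwinds leaders, stood at -1.67 with 870 to 1094 CPM of RNA and 215 to 425 CPM of footprints. TPT1, a growth-associated protein, stood at -1.12 and NPM1, a nucleolar chaperone, at -0.75. PABPC1, which binds poly(A) tails, had 539 to 725 CPM of RNA and 218 to 295 CPM of footprints, a log2 ratio of -1.36. For these messages the RNA library of each line again lay above both footprint libraries. EIF3F, a subunit of the initiation factor that holds the small ribosomal subunit, went the other way, with 35.6 to 40.2 CPM of RNA, 326 to 478 CPM of footprints and a log2 ratio of 3.44 (SE 0.11; trend-adjusted 2.69). Its partner EIF3H stood at 2.84. Of the 18 factors with TOP messages 8 were higher and 5 lower (median 0.14).

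Of 47 large-subunit ribosomal proteins 36 were higher and 5 lower (median 1.17), and of 30 small-subunit proteins 22 were higher and 4 lower (median 1.22). RPS29, at 5.15, RPL18, at 2.88, and RPS16, at 2.76, were among the high ones (trend-adjusted 2.27, 1.20 and 0.93), and RPSA, at -1.34, and RPS2, at -0.97, among the low (trend-adjusted -1.98 and -2.32). After the length and GC trend the list medians were -0.03 and -0.16. Ribosomal protein genes have many near-identical pseudogenes, and the handling of reads with several matches is not stated. A start with C and a pyrimidine run of at least 5 was found in 519 of 9133 genes (5.68%), whose median log2 ratio was 0.19 (trend-adjusted 0.06). It was found in 52 of 74 listed TOP messages (70.3%). The listed messages with and without such a start had medians of 1.14 and 1.05, and trend-adjusted medians of -0.17 and -0.06.

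The ratio differed between the lines for 1111 of 11083 genes (10%) in the test of the line term, and in 284 of these it had opposite signs in a pair of lines. Against 10% of all genes, 45 of 47 large-subunit and 27 of 30 small-subunit ribosomal protein genes were called in the line term, as were 15 of 18 TOP factors. Other lists with many calls were actin and contractile genes (20 of 31), tRNA synthetases (13 of 21) and extracellular matrix (19 of 40). Few were called among mitochondrial ribosomal proteins (2 of 75) and oxidative phosphorylation (5 of 75). Genes with more counts are more readily called, and the 10% was not matched for abundance. The part of abundance in these counts was not tested. The large-subunit median was 0.66 in EH, 1.24 in EL and 1.63 in ELR, and the small-subunit median 0.79, 1.43 and 1.69. RPS6 had 1691, 1560 and 2418 CPM of RNA and footprints of 1042 and 1050, 1983 and 1901, and 3237 and 3059 CPM. Its footprints were below its RNA in EH and above it in EL and ELR, with log2 ratios of -0.69, 0.32 and 0.38 (adjusted p of the line term 3.12e-29). RPL6 had 1661, 1444 and 2368 CPM of RNA and footprints of 903 and 924, 1636 and 1616, and 2614 and 2586 CPM, and its ratios were -0.86, 0.17 and 0.13 (adjusted p = 1.46e-28).

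Other genes had their highest ratio in EH. Of the interferon-induced genes 16 of 32 were called in the line term, with a list median of 0.51 in EH, -0.73 in EL and -0.75 in ELR. AHNAK, a giant membrane scaffold, had 15101, 6354 and 7025 CPM of RNA and footprints of 3394 and 3438, 785 and 726, and 677 and 686 CPM, so that its log2 ratio was -2.14 in EH, -3.07 in EL and -3.36 in ELR (adjusted p = 4.75e-37). PLEC, which links intermediate filaments to other structures, had 1463, 754 and 1032 CPM of RNA and footprints of 1788 and 1879, 490 and 509, and 513 and 525 CPM, with ratios of 0.33, -0.59 and -0.99. Each line has a single RNA library, so a difference between lines in the ratio cannot be told apart from one between these RNA libraries. The error of the line term came from the footprint pairs alone. Without the EH RNA library EH has no ratio, and the line term, which then compares EL with ELR only, called 320 genes and neither RPS6 nor RPL6 (adjusted p = 0.61 and 0.81). Without that of ELR, comparing EH with EL, it called 620, and both genes were called. DESeq2's likelihood ratio test called 331. The main comparison rests less on any library, with 8139 to 8499 calls when each of the 9 was left out in turn.

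**Figure D5:**
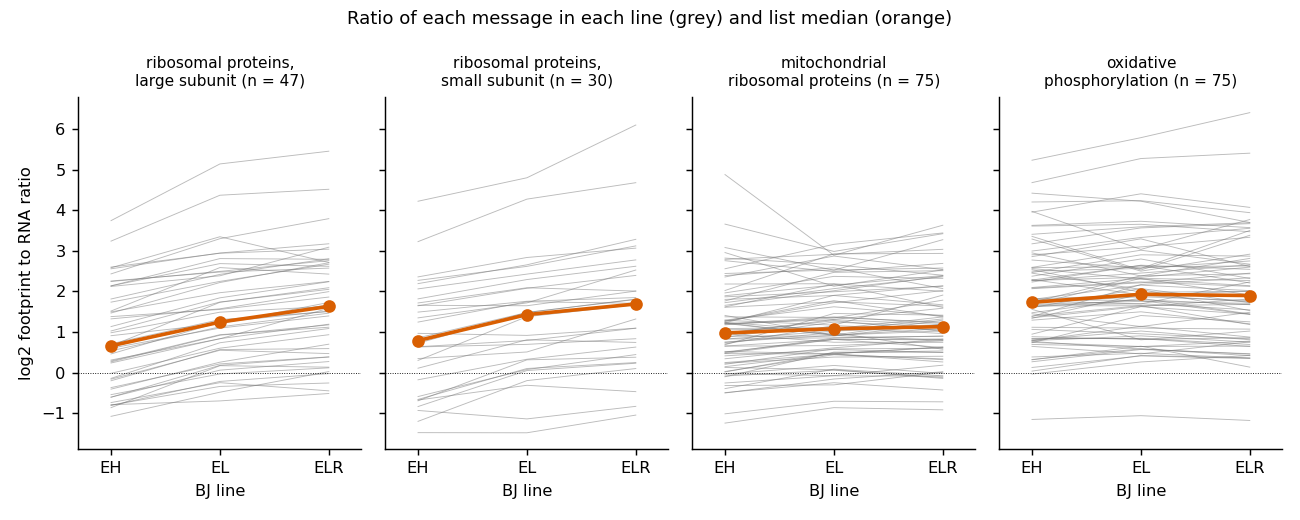
Log2 footprint to RNA ratio (y axis) of large-subunit, small-subunit and mitochondrial ribosomal proteins and oxidative phosphorylation in EH, EL and ELR (x axis); grey lines are genes and orange points medians. The large-subunit median climbs from 0.66 in EH to 1.24 in EL and 1.63 in ELR, and each line has 1 RNA library.

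ER-Src gave much the same ranking. Across 11976 genes tested in the joint fit of both models the log2 ratios had a Pearson r of 0.84 and a Spearman rho of 0.86. This is across genes, which are not independent replicates, and both models share the library methods. Some of these genes had no counts in one model. THY1 and KISS1 were at 0 CPM in all ER-Src libraries, so their ER-Src ratio and its sign hold no information. Of 5505 genes called and at least 2-fold in BJ, 96.8% had the same sign in ER-Src, with genes such as KISS1 still in that count. In the test of the difference between models the ratio was lower in BJ for 158 genes (1.32%) and higher in BJ for 171 (1.43%), of which 130 in all differed by at least 2-fold. FNDC3B, a protein with fibronectin type III domains, and SPTBN1, a spectrin under the plasma membrane, were among the clearest, with ratios lower in ER-Src by 2.15 (adjusted p = 1.15e-08) and 1.97 (SE 0.14, adjusted p = 1.12e-08) on the log2 scale. In ER-Src SPTBN1 had 294 to 360 CPM of RNA and 50.6 to 59.5 CPM of footprints. IQGAP1, a scaffold of the cell cortex, and ACTN4, an actin crosslinker, had ratios lower in ER-Src by 1.50 and 1.37.

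A further gene called in that test had almost no counts in BJ. KRT5, a keratin of basal epithelium, had 3927 to 4367 CPM in ER-Src RNA, 5.65 to 9.31 CPM in BJ RNA and 0 in all 6 BJ footprint libraries, and its ratio was 7.44 higher in ER-Src (adjusted p = 4.02e-07). KRT6A and KRT14 also had 3.90 to 9.31 CPM in BJ RNA, with 0 in the BJ footprints for KRT6A and at most 0.793 CPM for KRT14, against 1945 to 3494 CPM in ER-Src RNA. In the other direction COL1A2 had 1.35 to 3.07 CPM in ER-Src RNA, 0 in its footprints and up to 6639 CPM in BJ RNA. For KRT17 and COL1A1 the other model had footprints too: KRT17 had 4.59 to 13.4 CPM in BJ RNA and 0 to 5.62 CPM in BJ footprints, and COL1A1 had 0.383 to 1.35 CPM in ER-Src RNA and 6.01 to 13.3 CPM in its footprints. Where the low level of KRT5, KRT6A, KRT14 and COL1A2 RNA in the other model comes from was not tested.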

How the data were processed

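Each file held whole-number read counts per RefSeq transcript, deposited by the authors without normalization. Reads were aligned with TopHat to hg19, per the submitters' processing notes; the counting program, its use of strand and its treatment of reads with several matches are not given in the sources used here. The transcript row with the highest mean count stood for each of 19137 symbols, since rows of a gene can share reads. BJ counts were scaled by TMM, filtered with filterByExpr (minimum count 10, minimum total 15) and fitted as line plus assay in edgeR 4.0.16 (R 4.3.3) by the quasi-likelihood test with Benjamini-Hochberg adjustment, called at an adjusted p under 0.05. The line term tested line by assay coefficients, and BJ was compared with ER-Src by an interaction over 17 libraries. Coding length and GC content came from GENCODE release 44 on GRCh37 (18751 symbols); the trend was an additive natural spline with 5 degrees of freedom for each, and was added after the data were seen. Ratios in single lines used a pseudocount of 0.5 CPM. On simulated counts the main fit recovered 88% of genes changed by 1 and 97% of those changed by 2 on the log2 scale. The line term recovered 53% and 79%, and the BJ against ER-Src term 60% and 89%. Each of these simulations changed 100 genes by each amount, whereas 8670 of 11083 were called in the data. Recovery with so many changed genes was not tested. Replicate numbers did not pair the footprint libraries of different lines: deviations from the line means correlated at -0.0112, 0.0146 and 0.0117.

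The libraries and the 37 gene lists were chosen with earlier results of these data known. Genes named were the 12 highest and 12 lowest called ratios above the median abundance with over 3 counts in each assay and the same side in all lines, 5 per direction with 3 or fewer counts, the 3 smallest p-values of each list, the 5 smallest of each interaction, and 12 fixed genes such as ATF4 and COL1A1; from these the text gives those with most to show, and NDUFS1, HIST1H2AD, KRT6A, KRT14 and other members were added after their values were seen. Alternatives covered scaling (RLE or none), low-count filters, DESeq2 1.42.0, symbols with a single row, each library left out, summed footprint libraries, a line by assay model, a replicate block, and length and GC trends.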

Additional observations from a re-analysis of the deposited data

Results flagged for a closer look

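The footprint to RNA ratio differed between the lines for 1111 genes in the test of the line term. Among abundant genes with the smallest p-values, the log2 ratio in ELR minus that in EH was -1.22 for AHNAK, 1.30 for TPT1, -1.32 for PLEC, 1.08 for RPS6 and 1.00 for RPL6. The ratio differed between BJ and ER-Src for 329 genes in the test of that difference. ER-Src minus BJ was -1.97 for SPTBN1, -2.15 for FNDC3B, 7.44 for KRT5, -1.50 for IQGAP1 and -1.37 for ACTN4 on the log2 scale. The KRT5 value rests on BJ RNA of 5.65 to 9.31 CPM and on 0 counts in BJ footprints, so its size depends on the prior count of the fit and is no bound.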

How the results depend on the processing

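The 8670 calls became 4799 over symbols with a single transcript row and 5542 over genes with a mean of at least 50 counts, both of which test fewer genes by construction; the others, DESeq2 (8053), summed footprints (8076) and the replicate block (8551) among them, ranged from 7371 to 8997. Higher and lower calls were 2371 and 2428 with single rows, 2761 and 2781 at 50 counts, and 3816 and 4875 without scaling, which moved the median of all genes from -0.02 to -0.18. At least 2-fold in all lines, higher and lower were 1446 and 1483, 1588 and 1553, and 1539 and 1614 after the joint trend. The line term gave 612 with single rows, 331 in DESeq2, 1208 with the replicate block, and 320 to 1166 without one library. The BJ against ER-Src term gave 169 (70 lower and 99 higher in BJ) with single rows, 562 in DESeq2 (365 higher in BJ), and 107 to 468 without one library, with 56 to 217 lower in BJ and 51 to 251 higher; the lowest came without the EL RNA library. Directions turned under the length trend for CXCL12 (-0.16), IL8 (-0.67), DSP (0.62), FTL (-1.04) and PLEC (1.83); under the GC trend for TERT (-0.21), NRAS (0.053), FTL (-0.33) and RPS6 (0.39); under the joint trend for GPX1 (-0.045), GPX4 (-0.29), CXCL12 (-0.21), IL8 (-0.13), ASPM (0.39), CENPE (0.70), ITGA4 (0.049), ITGA2 (0.44), DSP (0.80), FTL (-1.38), OAZ1 (-0.39) and PLEC (0.24); and without the EH RNA library for RPS6 and RPL6, whose ratios with each library left out ran from -0.20 to 0.35 and from -0.38 to 0.15. A turn was counted by the sign of the ratio where either fit passed the test. Under the length trend the turned ratio of CXCL12 did not itself pass, nor did those of TERT and NRAS under the GC trend. Under the joint trend those of CXCL12, GPX1, IL8, ITGA4 and PLEC did not pass. The cause of these turns was not tested. Without the RNA library of a line that line has no ratio, so the line term then compares the other 2.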
